A study of Rattus norvegicus with 15 samples.

Results

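Of 13013 named genes with a probe above background in at least 1 group, 147 moved the same way in both steps from normal to diabetic and from diabetic to operated intestine. In 77 of these genes the group mean rose from Wistar to GK-Sham-PF rats and again from GK-Sham-PF to GK-S-30 rats, and in 70 it fell at both steps. They were chosen by their values, which are therefore given as a description without a test. The group means of the deposited log2 signals had to differ by at least 0.5 in the same direction in both steps, and none of the 5 Wistar values could overlap the 5 GK-S-30 values. Each gene was represented by its brightest probe that was well above background on all 5 arrays of at least 1 group. All levels below are log2 signals of 1 probe, means of several groups are given in the order Wistar, sham-operated and bypass-operated rats, and single values in the order of the rats. The rule took 0.592% of the genes in the rising direction and 0.538% in the falling direction.

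The Goto-Kakizaki (GK) strain was bred from Wistar rats and develops type 2 diabetes without obesity. Roux-en-Y gastric bypass (RYGB) joins a cut loop of small intestine, the Roux limb, to the upper stomach, so that food enters the limb without bile and pancreatic juice. All 15 rats were male and gave 1 array each. The 5 Wistar rats were the nondiabetic controls and were not operated. The 5 GK-Sham-PF rats were sham-operated GK rats, with an incision 16 cm from the ligament of Treitz that was closed again, and were pair-fed. The 5 GK-S-30 rats were GK rats given RYGB with a Roux limb of 30 cm. The operated rats were 16 wk old at surgery, the Wistar rats were of matching age, and tissue was taken 14 wk later after an overnight fast, from the Roux limb in GK-S-30 rats and from the corresponding stretch of intestine in the others. The first step therefore joins strain, diabetes, sham surgery and pair-feeding, which cannot be told apart, and the second step joins the rearrangement with whatever the operation does to the piece that was sampled. Whole pieces of intestine were used, so that fewer cells of a type and less RNA per cell cannot be told apart. Smooth muscle markers were also higher in the second step. The summed linear signal of 10 muscle markers was between 70837 and 122133 in Wistar, 58855 and 138150 in GK-Sham-PF and 182613 and 229115 in GK-S-30 rats, with 6 of 10 called higher, and its part in the results was not tested. The 13 epithelial markers were above background in every group, with 2 of 13 higher in the second step.

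The upper small intestine digests and absorbs food, and its epithelium also detoxifies what it absorbs and defends the surface against microbes. Enzymes of phase I, such as cytochromes P450, esterases and flavin monooxygenases, introduce or uncover a reactive group, and conjugating enzymes such as the UDP-glucuronosyltransferases (UGTs) add a sugar acid that makes the product soluble. Defence includes secreted lectins of the Reg3 family, which bind bacteria, and the dual oxidase DUOX2, which releases hydrogen peroxide at the apical surface. Interferons induce a separate set of antiviral proteins in epithelial and immune cells.

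Some members of each direction lay near each other in the genome. RefSeq (assembly GRCr8) gave a position for 131 of the 147 genes, and 16 of them formed 7 groups in which neighbouring members were at most 300 kb apart. In each of these groups all members moved in the same direction. No count of such groups among other genes is given here, so these numbers are a description of the list only. The 4 UGT members (Ugt2a3, Ugt2b15, Ugt2b37 and Ugt2b35) occupied 394 kb at chr14:20851970-21245893 and were the only 4 measured genes among the 14 annotated there. Reg3b and Reg3g lay within 123 kb (chr4:112419776-112542745, counting a noncoding gene that overlaps Reg3g), Sord and Duox2 within 60.6 kb (chr3:129638282-129698886), Rsad2 and Cmpk2 within 38.7 kb (chr6:48774985-48813652), Tex12 within the bounds of Il18 (chr8:59802072-59829275), Fmod and Chit1 within 120.0 kb (chr13:48045567-48165645), and Cldn6 and Prss30 within 306 kb (chr10:13213837-13519968). Genes between the members did not always move with them. Between the Reg3 genes, Reg1a had means of 8.29, 7.01 and 12.02 in the 3 groups and Reg3a of 5.00, 5.46 and 5.19, and Btg2 between Fmod and Chit1 changed by 0.05 and then by -0.31. The stretch of Cldn6 and Prss30 held 10 measured genes with 2 members, and Zg16b between them rose by 1.55 and then by 0.28.

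Promoter sequences of RefSeq (GRCr8) matched 104 of the 147 members, 52 in each direction. The 250 bases before the start are shown for the neighbours that moved furthest together and for 2 members with a motif of a well-known inducible factor. In the UGT group the capitals mark the longest run that Ugt2b15, Ugt2b37 and Ugt2b35 share, 31 bases that end 52, 40 and 61 bases before the start and contain TTGAGCAA, a match to TTGCNNAA (read on the other strand), a sequence of the type bound by CCAAT/enhancer-binding proteins.
Ugt2b15 (chr14:21122616-21122865, plus strand): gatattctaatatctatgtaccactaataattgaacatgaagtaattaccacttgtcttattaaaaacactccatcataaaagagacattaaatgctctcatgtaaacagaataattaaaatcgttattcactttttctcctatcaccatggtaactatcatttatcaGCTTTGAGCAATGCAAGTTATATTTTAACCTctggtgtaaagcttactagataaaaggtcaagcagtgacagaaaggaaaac
Ugt2b37 (chr14:21171886-21172135, plus strand): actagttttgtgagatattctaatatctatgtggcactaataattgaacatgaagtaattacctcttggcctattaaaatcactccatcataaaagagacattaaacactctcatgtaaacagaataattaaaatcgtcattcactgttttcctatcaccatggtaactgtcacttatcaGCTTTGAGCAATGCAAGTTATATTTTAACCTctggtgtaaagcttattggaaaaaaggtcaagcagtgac
Ugt2b35 (chr14:21208191-21208440, plus strand): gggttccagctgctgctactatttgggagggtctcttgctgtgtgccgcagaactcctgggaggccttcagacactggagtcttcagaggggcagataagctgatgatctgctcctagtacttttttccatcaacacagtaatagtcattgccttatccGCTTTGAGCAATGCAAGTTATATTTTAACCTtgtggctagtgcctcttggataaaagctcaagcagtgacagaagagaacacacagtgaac
In the Reg3 pair the capitals mark the longest shared run, 15 bases that begin 195 and 198 bases before the starts of Reg3b and Reg3g, and both have a TATAAA box that begins 29 and 32 bases before the start.
Reg3b (chr4:112419526-112419775, plus strand): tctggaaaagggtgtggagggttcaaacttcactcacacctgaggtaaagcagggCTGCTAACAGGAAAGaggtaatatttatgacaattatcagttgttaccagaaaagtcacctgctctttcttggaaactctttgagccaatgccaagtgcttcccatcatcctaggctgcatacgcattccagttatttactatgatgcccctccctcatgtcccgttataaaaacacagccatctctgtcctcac
Reg3g (chr4:112484739-112484988, minus strand): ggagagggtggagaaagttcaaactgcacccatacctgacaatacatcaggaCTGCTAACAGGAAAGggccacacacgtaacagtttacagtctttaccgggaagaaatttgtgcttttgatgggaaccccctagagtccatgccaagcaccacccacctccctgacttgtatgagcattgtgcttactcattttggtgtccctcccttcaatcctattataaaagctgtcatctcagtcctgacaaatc
In Duox2 the capitals mark a match to GGGANTTCC, the kappa B motif, that begins 59 bases before the listed start, and in Rsad2 a match to the core of the interferon-stimulated response element that begins 147 bases before it. The listed starts of Duox2, Rsad2 and Ugt2b35 lie 133, 125 and 52 bases inside the outermost start of the gene. The marked match of Duox2 therefore lies within the bounds of the gene, downstream of its outermost start.
Duox2 (chr3:129698754-129699003, minus strand): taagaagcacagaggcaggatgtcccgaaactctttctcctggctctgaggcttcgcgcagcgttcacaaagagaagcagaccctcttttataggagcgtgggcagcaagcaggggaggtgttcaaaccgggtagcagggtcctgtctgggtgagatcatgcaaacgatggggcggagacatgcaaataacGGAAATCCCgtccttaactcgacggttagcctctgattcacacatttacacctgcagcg
Rsad2 (chr6:48788121-48788370, minus strand): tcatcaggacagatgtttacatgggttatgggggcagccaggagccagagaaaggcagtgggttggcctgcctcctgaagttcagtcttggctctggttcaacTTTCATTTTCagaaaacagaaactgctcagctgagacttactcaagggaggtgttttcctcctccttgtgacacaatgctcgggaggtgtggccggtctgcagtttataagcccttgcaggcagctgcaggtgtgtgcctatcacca
Across the first listed promoters of 27457 genes, searched on both strands over 250 bases, TTGCNNAA stood in 9.2%, TATAAA in 13.1%, the core of the interferon-stimulated response element in 3.29%, GGGANTTCC in 1.51% and TCACNCCAC, a sterol regulatory element, in 0.976%. Among the falling members 9 of 52 had TTGCNNAA (Alb, Asgr1, Klra5, Ldhc, Srd5a1, Ubd and the 3 Ugt2b genes, which have it in the stretch printed above) and 3 had the interferon element core (Klra5, Rbm43 and Rsad2). Among the rising members 3 of 52 had TTGCNNAA, 2 had the interferon element core (Prss1 and Tex12) and 1 (Ehd2) had TCACNCCAC. TATAAA stood in 8 rising and 6 falling members. GGGANTTCC stood in 2 rising members (Duox2 and F10) and 2 falling ones (Grk3 and Ubd). A match is a string of letters and not a bound site, and the motifs were chosen after the members were known.

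**Figure D1:**
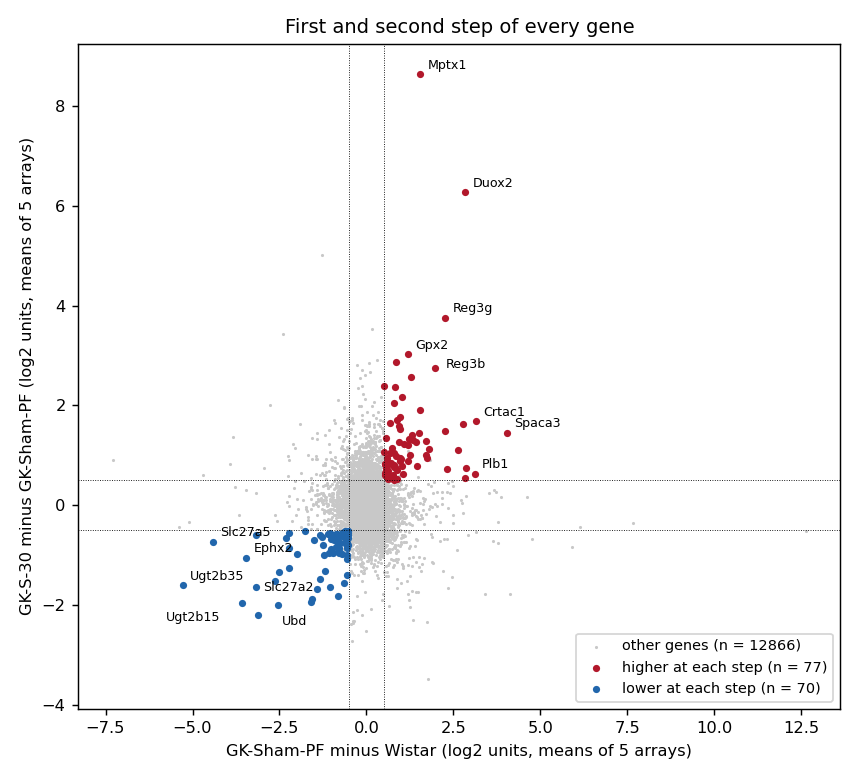
Difference GK-Sham-PF minus Wistar (horizontal axis) against GK-S-30 minus GK-Sham-PF (vertical axis) of the 13013 genes, in log2 units of group means of 5 arrays. Dotted lines mark the limit of 0.5 in size, red points the 77 members higher at each step and blue points the 70 lower at each step, and the red points reach furthest along the vertical axis (Mptx1, 8.64) while the blue points reach furthest along the horizontal axis (Ugt2b35, -5.28).

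The median first and second steps of the 77 rising members were 0.95 and 1.01 (log2), against 0.01 and -0.03 for all genes, and the second step was the larger one in 44 and the first in 33. The falling members had medians of -0.91 and -0.79, with the first step larger in 45 and the second in 25, and with 75th percentile scaling both of their medians were -0.89. Both steps reached a size of 1 in 25 rising and 15 falling members, and the whole distance from Wistar to GK-S-30 reached 2, a 4-fold change, in 42 and 28. The median whole distance was 2.28 and -1.71, and it went from 1.13 to 10.18 in the rising members and from -1.03 to -6.89 in the falling ones. The median SD within a group was 0.48 for the rising and 0.40 for the falling members, against 0.24 for all genes.

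The separate tests of the steps were read against the background of all genes. A limma model over the 15 arrays with Benjamini-Hochberg adjustment at 0.05 called 45 of 77 rising members higher in GK-Sham-PF than in Wistar rats (background 4.20% of all genes), 46 higher in the second step (5.17%) and 77 higher in GK-S-30 than in Wistar rats (12.5%). It called 50 of 70 falling members lower in the first step (4.60%), 41 lower in the second (4.45%) and 68 lower across both (13.8%). Since the same differences chose the members, these counts say how many steps stood above the spread between rats and are no evidence for the list. The arrays of the first step did not overlap in 32 rising (background 4.64%) and 41 falling members (5.03%), and the arrays of the second step did not overlap in 37 (4.63%) and 29 (4.30%). With the slide as a block the members called were 18, 25 and 42 of 147 in the first step, the second step and across both, in place of 95, 87 and 145, and the shares of all genes called in either direction were 1.41%, 2.19% and 1.84%. The 2 steps share the GK-Sham-PF arrays, so that an error in that group's mean moves them in opposite directions.

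In single rats the middle group was often not in the middle. All 5 GK-Sham-PF arrays lay between the Wistar and the GK-S-30 arrays in 19 rising and in 19 falling members. In 27 rising and 19 falling members at least 1 GK-Sham-PF rat was within or beyond the Wistar range while another was within or beyond the GK-S-30 range. In the rest the GK-Sham-PF values ran into the Wistar range only (18 rising and 10 falling members) or into the GK-S-30 range only (13 and 22). No share of all genes with the same placement is given here, so these counts are a description of the list only. Each GK-Sham-PF rat lay between both ranges in 39 to 52 of the rising and 36 to 52 of the falling members. GK-Sham-PF rats 3 and 4 reached the GK-S-30 range in 21 rising members each, against 9 to 11 for the other rats, and rat 4 reached it in 23 falling members against 7 to 15.

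**Figure D2:**
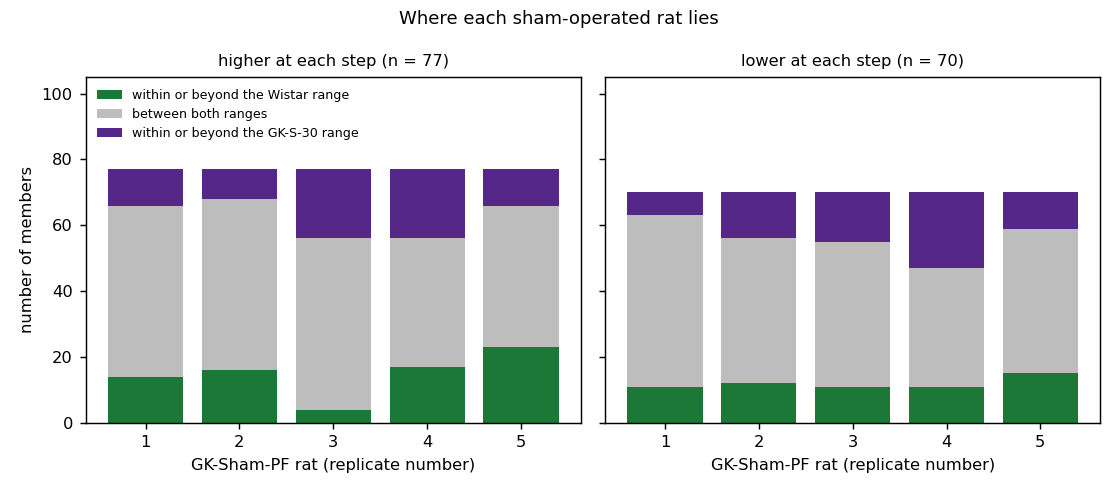
Number of members (vertical axis) for which each GK-Sham-PF rat (horizontal axis, replicate number) lay within or beyond the Wistar range (green), between both ranges (grey) or within or beyond the GK-S-30 range (purple), for the 77 members higher (left) and the 70 lower at each step (right). The grey part is the largest in all 10 bars, from 36 to 52 members, and the purple part is largest in rat 4 on the right (23 members).

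The order of the groups also followed the order of the 4 glass slides. Slide A held 4 Wistar arrays, slide B 3 GK-Sham-PF arrays beside the remaining Wistar array, slide C 2 arrays of each GK group and slide D the last 3 of the GK-S-30 group. Within slide B all 77 rising and all 70 falling members kept the sign of the first step, with medians of 1.07 and -0.99. Within slide C 76 of 77 and 69 of 70 kept the sign of the second step, with medians of 1.16 and -0.87, and the exceptions were Plb1 (-1.07 within the slide) and Tectb (0.16). Among all genes with a step of at least 0.5, the sign was kept in 95.4% to 98.8%, depending on step and direction. The first step reached 0.5 in size within slide B in 62 rising and 58 falling members, and in 537 of 733 and 510 of 681 of all such genes. The second reached it within slide C in 70 and 60 members, and in 742 of 851 and 577 of 843 of all such genes. The arrays of both slides are among those that chose the members, so the kept signs are no evidence for the list. Where 1 group was split over 2 slides, the difference between the later and the earlier slide had medians of -0.04, -0.07 and -0.06 in the rising members, in the order of the groups, and of 0.03, -0.13 and 0.24 in the falling ones.

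**Figure D3:**
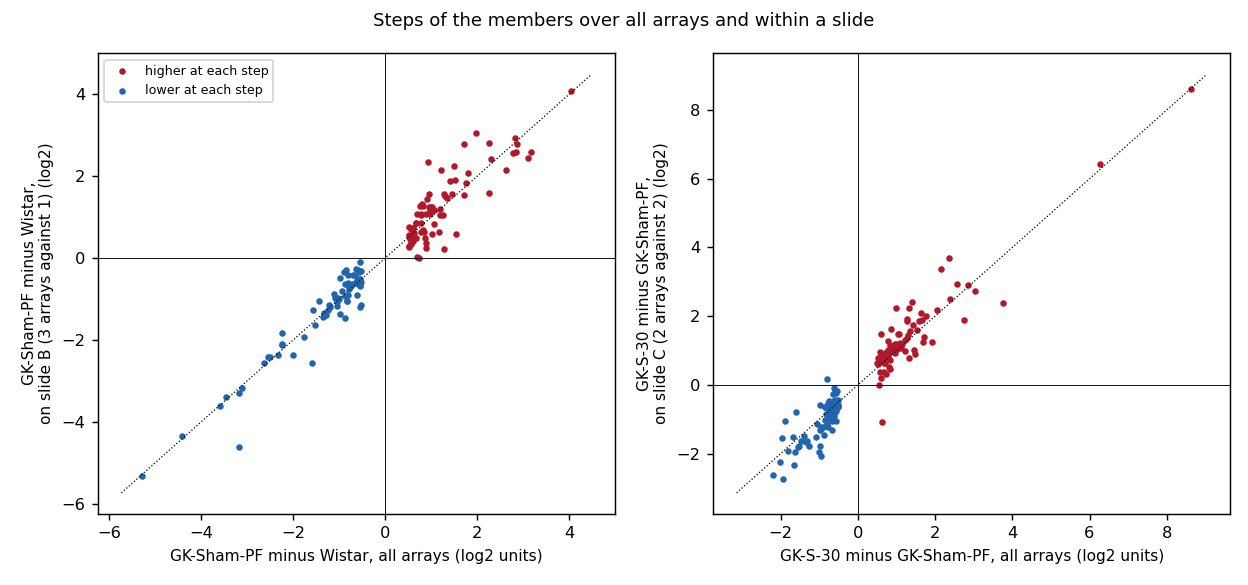
Steps of the 147 members over all arrays (horizontal axes) against the same step within 1 slide (vertical axes), in log2 units, with slide B (3 GK-Sham-PF arrays against 1 Wistar array) on the left and slide C (2 GK-S-30 against 2 GK-Sham-PF arrays) on the right. The dotted line marks equality, and 2 points lie on the other side of 0 on slide C, Plb1 at -1.07 and Tectb at 0.16.

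Mucosal defence and inflammation held the members that rose furthest. Duox2 (chr3:129680543-129698886) read 5.29, 5.71, 5.6, 5.45 and 4.88 in Wistar rats, 7.71, 7.5, 8.39, 10.42 and 7.14 in GK-Sham-PF rats and 14.83, 15.61, 14.17, 13.71 and 14.19 in GK-S-30 rats. The GK-Sham-PF rats were all above the Wistar rats and all below the GK-S-30 rats, and the means of 5.39 ± 0.32, 8.23 ± 1.3 and 14.5 ± 0.74 (SD, n = 5) lay 555-fold apart from end to end. Its relative Duox1, on the same list, was not a member, with means of 5.68, 5.92 and 6.15. Mptx1 (chr13:88260335-88263869), a mucosal pentraxin of the gut epithelium, read 2.41, 1.46, 1.41, 1.94 and 4.38 in Wistar rats, 1.53, 1.99, 5.46, 9.0 and 1.34 in GK-Sham-PF rats and 13.03, 14.54, 12.58, 9.46 and 12.89 in GK-S-30 rats. All GK-S-30 rats were high, whereas GK-Sham-PF rat 4 at 9.0 and rat 3 at 5.46 stood apart from the other 3 GK-Sham-PF rats, which lay in or below the Wistar range. The probe was above background on 1, 2 and 5 arrays of the 3 groups. Its first step of 1.54 thus rested on 2 rats, and was 0.59 within slide B.

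The antibacterial lectin Reg3g (chr4:112482183-112484738) read 9.25, 10.16, 11.49, 10.91 and 10.77 in Wistar rats, 10.08, 11.21, 14.94, 11.1 and 16.56 in GK-Sham-PF rats and 16.17, 16.27, 16.88, 16.6 and 16.79 in GK-S-30 rats. GK-Sham-PF rat 5 was in the GK-S-30 range, rat 3 between the ranges and the other 3 were in the Wistar range, so that the mean of 12.78 described none of the 5 rats. Reg3b (chr4:112419776-112423014) read 11.58, 13.33, 13.88, 13.55 and 13.14 in Wistar rats, 12.49, 14.05, 17.38, 13.5 and 17.96 in GK-Sham-PF rats and 17.8, 17.47, 18.1, 17.96 and 17.82 in GK-S-30 rats. Rats 3 and 5 were again in or just under the GK-S-30 range, and the other 3 in or just above the Wistar range. Probes for Reg3b and Reg3g may share signal, since the genes are near copies of each other. Interleukin-18, a cytokine that epithelial cells store as a precursor (Il18, chr8:59802072-59829275), read 11.06, 10.64, 10.47, 10.9 and 10.86 in Wistar rats, 11.24, 11.45, 11.31, 11.52 and 11.06 in GK-Sham-PF rats and 12.13, 11.89, 12.37, 12.13 and 12.13 in GK-S-30 rats. Its steps were 0.53 and 0.82, the GK-S-30 rats were all above the rest, and a dimmer probe of the gene gave 0.44 and 0.88.

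The other defence members were the neutrophil surface protein Cd177 (means 2.26, 3.29 and 5.45, above background on 0, 3 and 5 arrays of the 3 groups, at least 4.36-fold), the lysosomal protease cathepsin Z (Ctsz, 9.18, 10.37 and 11.58), the pore-forming gasdermin Gsdmc (6.2, 6.87 and 8.52) and the resistin-like cytokine Retnlg (5.95, 7.25 and 8.66). Of 27 measured genes on a list of antimicrobial and inflammatory defence, 6 passed the test as higher in the first step, and 4 as higher and 1 as lower in the second. The list's median steps were 0.24 and 0.04. The calprotectin genes of neutrophils were called higher in the first step and not called in the second (adjusted p = 0.74 and 0.976), with S100a8 at 1.80, 5.58 and 5.25 and S100a9 at 5.06, 7.10 and 7.07. The Paneth cell defensin Defa24 was at 17.56, 17.48 and 17.52. The falling member of this list was Ccl20 (chr9:91837139-91839736), a chemokine of the epithelium over lymphoid follicles, which read 10.27, 10.41, 10.1, 10.24 and 10.07 in Wistar rats, 9.99, 9.28, 8.78, 9.3 and 9.45 in GK-Sham-PF rats and 8.15, 8.0, 10.06, 9.09 and 8.14 in GK-S-30 rats. GK-S-30 rat 3 at 10.06 was above every GK-Sham-PF rat and just under the lowest Wistar rat at 10.07.

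**Figure D4:**
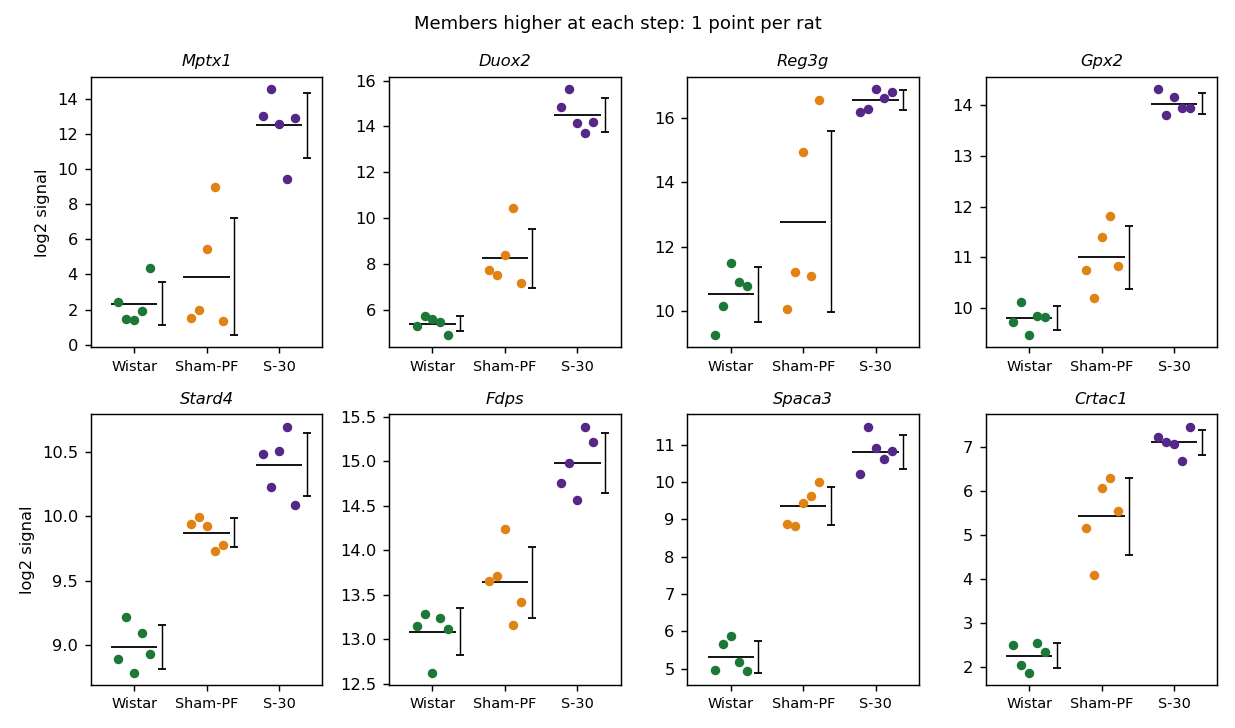
Log2 signal (vertical axes) of 8 members higher at each step in the 3 groups of rats, with 1 point per rat in replicate order, a line at the mean and a bar of 1 SD to each side (n = 5). In Duox2 and Gpx2 the 3 groups are separate, in Reg3g GK-Sham-PF rats 3 and 5 lie at 14.94 and 16.56 apart from the others, and in Mptx1 rat 4 lies at 9.

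Sterol and lipid genes formed a second group of 9 rising members. Fdps (chr2:176795192-176804816), the farnesyl diphosphate synthase of the mevalonate pathway, read 13.15, 13.29, 12.62, 13.24 and 13.11 in Wistar rats, 13.66, 13.71, 14.24, 13.16 and 13.42 in GK-Sham-PF rats and 14.75, 14.99, 14.57, 15.39 and 15.22 in GK-S-30 rats. The GK-S-30 rats stood apart, while GK-Sham-PF rat 4 at 13.16 lay inside the Wistar range. A dimmer Fdps probe gave 0.65 and 1.47, and RGD1560208, a transcribed copy of Fdps that can share its signal, had means of 9.27, 10.21 and 11.99. Stard4 (chr18:25088831-25104172), a carrier of cholesterol between membranes, read 8.89, 9.22, 8.79, 9.09 and 8.93 in Wistar rats, 9.94, 10.0, 9.92, 9.73 and 9.78 in GK-Sham-PF rats and 10.49, 10.23, 10.51, 10.7 and 10.09 in GK-S-30 rats. Here the 3 groups did not overlap and the first step of 0.89 was larger than the second of 0.53. Fads1 (chr1:216252605-216267618), a desaturase of polyunsaturated fatty acids, read 5.32, 5.48, 3.99, 5.18 and 5.32 in Wistar rats, 6.39, 6.35, 5.83, 5.43 and 4.64 in GK-Sham-PF rats and 6.85, 6.16, 6.55, 7.45 and 6.83 in GK-S-30 rats. Its groups overlapped at both steps, with Wistar rat 3 and GK-Sham-PF rat 5, the arrays of lowest overall brightness, the lowest of their groups.

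The other genes of cholesterol synthesis moved mostly at the second step. On a list of 32 measured genes for cholesterol synthesis and its regulators, 2 passed as higher and 1 as lower between GK-Sham-PF and Wistar rats, with a median of 0.16, and 22 passed as higher and 1 as lower in the second step, with a median of 0.95. Squalene epoxidase, Sqle, was at 10.56, 10.78 and 12.85 and was not called in the first step (adjusted p = 0.695). Stard4 was among the list genes that passed as higher at the first step, and the regulator Srebf1 was the lower one (-0.65).

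Other lipid members were Ttpa (chr5:38294415-38315471), the vitamin E transfer protein, Sphk1, which makes sphingosine phosphate (5.07, 6.34 and 7.35), the phospholipases Plaat1 (3.51, 4.25 and 5.39) and Plb1 (5.22, 8.32 and 8.95). Ttpa read 1.72, 1.41, 1.36, 1.5 and 1.53 in Wistar rats, 3.98, 3.99, 4.87, 4.83 and 3.69 in GK-Sham-PF rats and 6.47, 6.21, 5.72, 5.13 and 5.97 in GK-S-30 rats. It was above background on no Wistar array and on all others, the groups did not overlap, and the ends differed at least 5.96-fold. Plb1, the brush border phospholipase B, had nearly all of its rise in the first step (3.11 of 3.74) and a second step that turned to -1.07 within slide C.

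Among redox enzymes, Gpx2 (chr6:101226745-101230033), the glutathione peroxidase of gut epithelium, read 9.73, 10.12, 9.47, 9.86 and 9.83 in Wistar rats, 10.75, 10.2, 11.4, 11.82 and 10.84 in GK-Sham-PF rats and 14.31, 13.8, 14.15, 13.93 and 13.95 in GK-S-30 rats. Its groups did not overlap, and the mean level differed 18.7-fold from end to end. A dimmer Gpx2 probe gave smaller steps of 0.83 and 1.13. Among other glutathione genes, Gpx1 at 13.95, 14.07 and 14.29 and glutathione reductase Gsr at 9.63, 9.62 and 9.77 were not called at either step, and Gpx3 was called higher in the first step (0.62) and lower in the second (-0.69). Adh6a (chr2:229497121-229519403), an alcohol dehydrogenase, read 3.52, 2.88, 1.94, 3.39 and 4.47 in Wistar rats, 5.35, 4.59, 5.4, 6.41 and 5.76 in GK-Sham-PF rats and 6.99, 6.98, 7.15, 6.5 and 7.33 in GK-S-30 rats. No GK-Sham-PF rat overlapped either of the other groups. Sorbitol dehydrogenase, Sord, the neighbour of Duox2, had means of 6.16, 6.68 and 9.07 and took most of its rise in the second step (2.39 of 2.91).

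The member with the largest first step upward was Spaca3 (chr10:66348336-66355808), a lysozyme-like protein known from the sperm acrosome, which read 4.96, 5.66, 5.87, 5.19 and 4.94 in Wistar rats, 8.86, 8.84, 9.43, 9.63 and 10.0 in GK-Sham-PF rats and 10.21, 11.48, 10.91, 10.61 and 10.83 in GK-S-30 rats. The 3 groups did not overlap, and the end means differed 44.7-fold. Crtac1 (chr1:251040963-251182920), a secreted matrix protein first found in cartilage, read 2.51, 2.05, 1.88, 2.55 and 2.36 in Wistar rats, 5.17, 4.09, 6.07, 6.29 and 5.54 in GK-Sham-PF rats and 7.23, 7.11, 7.08, 6.68 and 7.47 in GK-S-30 rats. It was above background on no Wistar array, and the ends differed at least 13.8-fold. Other rising members known from the testis were Ccna1 (a meiotic cyclin, 2.12, 3.62 and 5.06), Tex12 (a synaptonemal complex protein, 2.02, 2.96 and 4.22) and Smok2a (a sperm kinase, 3.19, 4.15 and 5.67). For Ccna1, Tex12 and Smok2a the probe was above background on no Wistar array, so that the ends differed at least 3.32-fold, 1.83-fold and 4.74-fold.

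Of 8 measured genes on the B cell and plasma cell list, Mzb1 rose and Cd22 fell at both steps. Mzb1 (chr18:27513087-27515148), which helps plasma cells to assemble antibody, read 8.67, 8.6, 8.78, 8.9 and 9.0 in Wistar rats, 9.58, 9.3, 9.24, 9.57 and 9.09 in GK-Sham-PF rats and 10.34, 9.95, 10.03, 9.31 and 10.18 in GK-S-30 rats. GK-S-30 rat 4 at 9.31 lay inside the GK-Sham-PF range. The immunoglobulin light chain segments LOC500159 (means 7.1, 8.81 and 10.08) and LOC500181 (9.03, 10.75 and 11.75) rose as well, and antibody genes of like sequence can share signal. Cd22 (chr1:95243785-95270430), an inhibitory receptor of mature B cells, read 6.91, 6.36, 6.61, 6.63 and 6.79 in Wistar rats, 6.98, 6.13, 5.6, 5.8 and 5.06 in GK-Sham-PF rats and 5.13, 4.79, 5.05, 5.23 and 5.63 in GK-S-30 rats. GK-Sham-PF rat 1 at 6.98 was above every Wistar rat. Cd22 was called at neither step, and a dimmer probe of the gene gave -0.26 and -0.79. Of the 8 list genes 3 passed as higher in the first step and 3 in the second, and 6 passed as higher and 1 as lower across both. The summed signal of the list was between 2565 and 3458 in Wistar, 3027 and 4827 in GK-Sham-PF and 3786 and 6103 in GK-S-30 rats, and its part in these results was not tested.

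Prss1 (chr4:71331249-71334452), a pancreatic trypsinogen, was the 1 member among 10 measured acinar markers and read 3.57, 3.29, 3.59, 2.43 and 2.66 in Wistar rats, 3.54, 2.32, 5.58, 4.15 and 4.4 in GK-Sham-PF rats and 6.54, 4.81, 7.24, 4.33 and 5.62 in GK-S-30 rats. GK-S-30 rats spread from 4.33 to 7.24 and overlapped the GK-Sham-PF rats, and the summed signal of the 10 markers, 3671 to 5285, 4574 to 6353 and 4016 to 5375, overlapped between the groups. Trypsinogens are close copies and their signals may mix. Plasma proteins that are otherwise made by the liver were Apoh (1.91, 3.18 and 4.51) and coagulation factor X (F10, 2.98, 3.9 and 5.48), both above background on no Wistar array (at least 2.27-fold and 4.35-fold). The ribonuclease Rnase1l2 had means of 2.64, 3.51 and 4.21. Muscle and matrix members were cardiac actin Actc1 (6.05, 6.66 and 7.52), tropomyosin Tpm1 (12.56, 13.12 and 13.87), collagen Col8a1 (5.82, 6.6 and 7.65) and the hyaluronan link protein Hapln2 (8.7, 9.88 and 10.77). They stood beside the smooth muscle markers given above and beside 15 fibroblast and matrix markers, of which 7 passed as higher in the second step. The 3 dimmer Tpm1 probes had first steps of -0.02, 0.00 and 0.23.

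Glycan enzymes were Gcnt3, which branches mucin sugars (11.36, 12.34 and 13.23), the sialyltransferase St3gal4 (6.38, 7.73 and 9.04), the fucosidase Fuca2 (9.46, 10.0 and 10.83) and Pigz, an enzyme of membrane anchors (2.09, 4.96 and 5.7, at least 5.19-fold). In Gcnt3 and St3gal4 the 3 groups did not overlap. The second step of Pigz leaned on GK-S-30 rat 3 at 7.09. The other GK-S-30 rats were between 5.12 and 5.83, and the step was not called and was 0.31 within slide C. Nerve and calcium genes included the neuropeptide gene Calcb (7.21, 7.78 and 8.73), synaptotagmin Syt12 (5.85, 8.15 and 8.89), the synaptic scaffold gene Cttnbp2 (4.69, 5.49 and 6.3) and the calcium sensor Cabp5 (1.43, 2.25 and 4.61, above background on no Wistar array and at least 2.43-fold). The 12 measured neuron and glia markers held no member, and their summed signal was 7204 to 11304, 11172 to 15946 and 11751 to 18020 in the 3 groups. Their median steps were 0.29 and -0.16. Of these markers 2 passed as higher in the first step, and 1 as higher and 1 as lower in the second. The 21 other rising members with a known name formed a mixed class, mostly of membrane, signalling and nuclear proteins, with medians of 0.69 at each step. They included the transcription factors Etv5 (9.09, 9.7 and 10.23) and Arnt2 (3.55, 4.18 and 4.87), nuclear lamin Lmnb1 (5.13, 5.91 and 6.41), the antiproliferative factor Tob1 (7.13, 7.68 and 8.26), the bicarbonate transporter Slc4a8 (4.55, 5.61 and 6.23) and the glutaminyl cyclase Qpct (5.05, 5.64 and 6.35), and also Armh4, Clba1, Cryba4, Ehd2, Gramd2a, Ikbip, Klhl31, Lsm6, Mfhas1, Otud7a, Pakap, Rhd, Sh3bp2 and Tbc1d8b. Lsm6 had a second step of 0.54 that rested on GK-S-30 rat 5 at 6.91. The other GK-S-30 rats, between 3.48 and 4.36, lay in or below the GK-Sham-PF range. Within slide C this step was 0.01. The 6 uncharacterised rising members and LOC301977, LOC363337, LOC363366 and LOC680758 were known by locus names only. In LOC301977, LOC363337, LOC363366, LOC680758, LOC690429 and LOC690782 alike, GK-S-30 rat 1 was lowest and rat 2 highest of that group. Whether their probes share signal was not tested.

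Conjugating enzymes held the members that fell furthest. Ugt2b35 (chr14:21208389-21245893) read 11.15, 11.3, 10.06, 11.73 and 11.07 in Wistar rats, 6.01, 5.78, 5.67, 4.96 and 6.49 in GK-Sham-PF rats and 5.5, 4.36, 3.15, 3.57 and 4.29 in GK-S-30 rats. No Wistar rat overlapped any GK rat, while GK-S-30 rat 1 at 5.50 lay inside the GK-Sham-PF range, and the means of 11.06 ± 0.61, 5.78 ± 0.56 and 4.17 ± 0.9 (SD, n = 5) put the ends 118-fold apart. Ugt2b15 (chr14:21122866-21138450) read 9.29, 9.56, 8.88, 9.5 and 9.05 in Wistar rats, 5.89, 5.83, 5.35, 5.16 and 6.14 in GK-Sham-PF rats and 4.13, 4.1, 3.41, 3.58 and 3.33 in GK-S-30 rats. The 3 groups did not overlap, and the ends differed 46.8-fold, with 2 GK-S-30 arrays above background. Ugt2a3 (chr14:20851970-20869974) read 6.19, 6.22, 5.76, 6.31 and 6.68 in Wistar rats, 3.9, 4.65, 2.8, 2.92 and 4.37 in GK-Sham-PF rats and 2.12, 1.87, 3.0, 3.21 and 1.72 in GK-S-30 rats. It was above background on 5, 3 and 0 arrays of the 3 groups, which gives a fall of at least 6.6-fold. Ugt2b37 (chr14:21172136-21188768) read 8.08, 8.19, 7.48, 8.36 and 8.04 in Wistar rats, 6.43, 6.09, 6.84, 6.5 and 6.69 in GK-Sham-PF rats and 6.21, 5.46, 5.87, 5.81 and 5.77 in GK-S-30 rats. A dimmer Ugt2b37 probe gave -6.98 and -1.59 in place of the -1.52 and -0.69 of the brightest one, so the size of its fall depended on the probe. The UGT2B genes are close copies with the shared promoter stretch printed above, and their probes may take up signal from each other.

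Not all UGT genes fell further after RYGB. Ugt2b7 was at 9.97, 6.14 and 7.5 and Ugt2b10 at 11.10, 9.64 and 9.84, lower in the first step by the limma model (adjusted p = 0.000294 and 0.000317) and not called in the second (adjusted p = 0.147 and 0.627). Ugt1a1 was at 8.62, 8.37 and 8.52. On a list of 41 measured genes for conjugation and glutathione, 17 passed as lower and 3 as higher in the first step, with a median of -0.37, and 6 passed as lower and 4 as higher in the second, with a median of 0.12. The sulfotransferase Sult1c2 and the glutathione transferase Gstt3 were lower in the first step and higher in the second (7.63, 6.29 and 6.89, and 10.63, 9.07 and 9.99). The conjugating member outside the list was the acetyltransferase Nat8f5 (8.1, 6.1 and 5.12), whose 3 groups did not overlap.

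**Figure D5:**
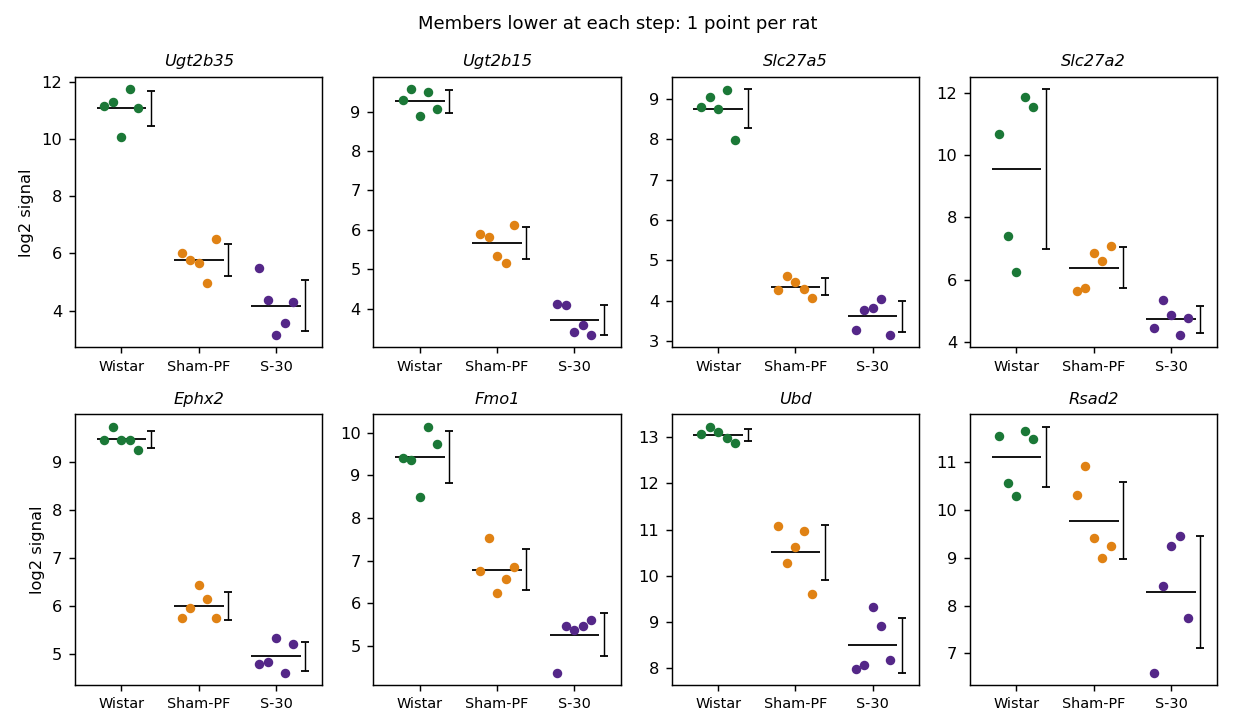
Log2 signal (vertical axes) of 8 members lower at each step in the 3 groups of rats, with 1 point per rat in replicate order, a line at the mean and a bar of 1 SD to each side (n = 5). The first step is the larger one in 7 of the 8 panels, the exception being Rsad2 (-1.33 and -1.48), and Wistar rats 2 and 3 lie low in Slc27a2 at 7.41 and 6.24.

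Phase I, retinoid and steroid enzymes came next. Ephx2 (chr15:44465447-44503157), the soluble epoxide hydrolase of fatty acid epoxides, read 9.45, 9.73, 9.46, 9.45 and 9.24 in Wistar rats, 5.76, 5.97, 6.44, 6.14 and 5.75 in GK-Sham-PF rats and 4.79, 4.85, 5.33, 4.62 and 5.21 in GK-S-30 rats. The groups were far apart and did not overlap, and the ends differed 22.7-fold. Fmo1 (chr13:77715405-77747666), a flavin monooxygenase, read 9.41, 9.37, 8.5, 10.13 and 9.74 in Wistar rats, 6.77, 7.52, 6.24, 6.58 and 6.85 in GK-Sham-PF rats and 4.38, 5.47, 5.38, 5.48 and 5.62 in GK-S-30 rats. Its groups did not overlap either, and GK-S-30 rat 1 was lowest at 4.38. Ces2a (chr19:135885-142935), a carboxylesterase of the intestine and liver, read 11.52, 11.75, 10.88, 11.81 and 11.17 in Wistar rats, 9.44, 9.23, 8.82, 9.1 and 8.94 in GK-Sham-PF rats and 8.72, 8.36, 8.75, 8.27 and 8.16 in GK-S-30 rats. It took most of its fall in the first step, and the second left no overlap. Cyp4a3 (chr5:134334396-134352268), which hydroxylates the ends of fatty acids, read 6.3, 6.26, 6.41, 6.81 and 6.67 in Wistar rats, 5.58, 4.94, 6.09, 5.66 and 6.27 in GK-Sham-PF rats and 2.7, 5.12, 6.23, 5.14 and 4.61 in GK-S-30 rats. GK-S-30 rats spread from 2.70 to 6.23 and overlapped the GK-Sham-PF rats. The others were the retinol dehydrogenase Rdh7 (12.42, 10.19 and 9.33), the retinal dehydrogenase Aldh8a1 (5.73, 4.14 and 2.18, at least 4.65-fold), Cyp2c6v1 (7.34, 6.3 and 4.64) and steroid reductase Srd5a1 (9.97, 9.33 and 8.68). Of 50 measured phase I genes, 7 passed as lower and 9 as higher in the first step, and 13 as lower and 2 as higher in the second, with a median of -0.25 at each.

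The acyl-CoA synthetases Slc27a5 and Slc27a2 activate bile acids and very long fatty acids. Slc27a5 (chr1:82688742-82699335) read 8.8, 9.06, 8.76, 9.22 and 7.99 in Wistar rats, 4.26, 4.62, 4.47, 4.3 and 4.07 in GK-Sham-PF rats and 3.27, 3.76, 3.83, 4.05 and 3.15 in GK-S-30 rats. All groups were separate, the first step of -4.42 took most of the fall, GK-S-30 rats were above background on 1 array, and a dimmer probe gave -4.20 and -0.28. Slc27a2 (chr3:134258101-134295581) read 10.67, 7.41, 6.24, 11.87 and 11.55 in Wistar rats, 5.64, 5.72, 6.84, 6.6 and 7.08 in GK-Sham-PF rats and 4.45, 5.36, 4.86, 4.22 and 4.78 in GK-S-30 rats. The Wistar rats fell into 3 high values above 10 and 2 low ones, of which rat 3 lay in the GK-Sham-PF range, and the SD of the Wistar group was 2.56. Also lower at each step were the HDL receptor Scarb1 (12.29, 11.17 and 10.6), pyruvate dehydrogenase kinase Pdk2 (12.17, 11.35 and 10.69), the racemase of branched fatty acids and bile acid precursors Amacr (10.64, 9.78 and 9.1), Qprt of NAD synthesis (10.72, 9.43 and 8.8), the CoA transferase Sugct (7.95, 6.76 and 5.44), the aminotransferase Agxt2 (5.26, 4.22 and 3.66), the iodotyrosine deiodinase Iyd (5.03, 3.95 and 2.99) and lactate dehydrogenase Ldhc (4.93, 2.7 and 2.15). The second step of Scarb1 was not called, and a dimmer probe of the gene gave -1.0 and -0.39. Ldhc was above background on the Wistar arrays and on no other, so its second step lay between groups that were both not well above background. Of 31 measured genes for fatty acid oxidation and ketogenesis, 4 passed as lower in the first step and 9 in the second, and Cyp4a3 was the only member among them.

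Interferon-induced genes gave 4 falling members. Ubd (chr20:1390734-1392685), a ubiquitin-like protein induced by interferon gamma, read 13.07, 13.22, 13.1, 12.97 and 12.88 in Wistar rats, 11.08, 10.29, 10.63, 10.96 and 9.6 in GK-Sham-PF rats and 7.99, 8.08, 9.33, 8.91 and 8.19 in GK-S-30 rats. The 3 groups did not overlap and the ends differed 23.4-fold. Rsad2 (chr6:48774985-48788245), the antiviral protein viperin, read 11.53, 10.56, 10.28, 11.65 and 11.48 in Wistar rats, 10.3, 10.9, 9.41, 9.0 and 9.25 in GK-Sham-PF rats and 6.6, 8.41, 9.24, 9.45 and 7.73 in GK-S-30 rats. Its groups overlapped at both steps, with GK-S-30 rats 3 and 4 at 9.24 and 9.45 inside the GK-Sham-PF range. Its neighbour Cmpk2, a nucleotide kinase that is induced with it, had means of 8.63, 7.66 and 6.71 without overlap, and Ifit1bl, of the IFIT family, means of 13.66, 13.08 and 12.3. The list as a whole moved less evenly. Of 40 measured genes on a list of interferon and MHC class I genes, 8 passed as higher and 7 as lower in the first step and 1 as higher and 3 as lower in the second, with medians of 0.14 and -0.24.

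Transport and binding members included S100g (chrX:35337636-35340205), the vitamin D-dependent calcium-binding protein of the absorbing cell, which read 13.99, 13.94, 13.87, 14.16 and 14.38 in Wistar rats, 13.65, 13.4, 13.11, 12.96 and 13.24 in GK-Sham-PF rats and 12.24, 12.67, 12.08, 12.81 and 12.27 in GK-S-30 rats. Its groups did not overlap and its means were 14.07 ± 0.2, 13.27 ± 0.27 and 12.41 ± 0.31 (SD, n = 5), a fall of 3.15-fold. Slc22a7 (chr9:22044672-22052051), an organic anion transporter, read 7.26, 8.01, 6.94, 7.66 and 6.05 in Wistar rats, 3.87, 3.8, 4.63, 2.89 and 5.18 in GK-Sham-PF rats and 1.32, 1.5, 3.76, 1.35 and 1.38 in GK-S-30 rats. GK-S-30 rat 3 at 3.76 stood apart from the other 4, which were not above background. The folate receptor Folr1 (7.41, 6.72 and 5.76), the urea transporter Slc14a1 (6.84, 6.29 and 5.7), the carnitine and ergothioneine transporter Slc22a4 (7.35, 6.81 and 6.01) and the potassium channel Kcnk4 (6.03, 4.81 and 3.82) completed the group. On the list for iron, calcium, vitamins and bile acids, with 22 measured genes, S100g was the only member, 3 passed as lower in the first step, and 5 passed as higher and 2 as lower in the second.

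Among immune members the complement subunit C8g took most of its fall in the second step (11.57, 10.76 and 8.94), and the complement factor H relative Cfhr4 (9.11, 8.51 and 7.95), the macrophage chitinase Chit1 (10.12, 9.42 and 8.86), the NK cell receptor Klra5 (8.11, 7.09 and 6.41) and the Toll-like receptor Tlr10 (5.89, 5.01 and 4.42) were lower in smaller steps. Of 18 T and NK cell markers, which held no member, 5 passed as higher in the first step and 9 as lower in the second, and of 16 myeloid markers 1 passed as higher and 2 as lower in the first and 2 as lower in the second. Matrix and adhesion members were fibromodulin Fmod (10.46, 9.64 and 8.9), the collagen Col24a1 (6.44, 4.2 and 2.94, at least 7.44-fold), the collagen-like Colq (8.27, 7.61 and 6.05), the Notch ligand relative Dlk1 (4.93, 3.99 and 3.3), the cadherin relative Cdhr1 (7.28, 6.45 and 5.87), claudin Cldn6 (4.46, 3.87 and 3.15), the tectorin Tectb (4.25, 3.69 and 2.91, at least 1.66-fold) and Vit (4.69, 3.26 and 1.58, at least 2.26-fold). The first step of Colq was not called, with GK-Sham-PF rats 3 and 5 at 8.56 and 9.11 in or above the Wistar range. The first step of Cldn6 rested on Wistar rat 3 at 6.72, with the other Wistar rats between 3.69 and 4.25. Cldn6 was called neither at a step nor across both. The plasma and liver-type proteins were albumin (Alb, 4.99, 4.43 and 3.43) and the asialoglycoprotein receptor Asgr1 (5.5, 4.51 and 3.91). Or5b123b (chr1:219768225-219769172), annotated as an olfactory receptor, read 8.9, 8.64, 9.18, 8.66 and 8.79 in Wistar rats, 5.4, 5.66, 5.79, 5.64 and 5.85 in GK-Sham-PF rats and 5.37, 5.26, 4.5, 5.36 and 4.88 in GK-S-30 rats. All GK rats were far below the Wistar rats and the second step of -0.59 separated the GK groups without overlap. The other receptors, signalling and nuclear proteins were Dapl1 (11.2, 9.63 and 7.75), Dbr1, the homeobox genes Dlx1 (8.01, 7.47 and 6.96) and Otx1 (7.09, 6.22 and 5.39), Grk3, Gsdme, Or1x2c, Prss30, Rbm43, Rnf32, Tekt5l1 and Zfp362 (8.39, 6.63 and 6.12), and 7 members were known by locus or database names only. The second step of Grk3 rested on GK-Sham-PF rat 3 at 7.57. The other GK-Sham-PF rats, between 4.17 and 4.71, lay about as high as the GK-S-30 rats, between 4.27 and 4.62. Within slide C this step was -0.08, and Grk3 was called neither at a step nor across both.

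Low signals limited part of the list. Of the 77 rising members 46 were above background on all 15 arrays and 15 on no Wistar array, and of the 70 falling members 45 were above background on all arrays and 7 on no GK-S-30 array, whereas 92.5% of all genes were above background on every array. In Klhl31 (rising) and Ldhc (falling) 1 of the steps lay between groups that were both below background throughout. With a background correction that adds an offset (normexp), which shrinks differences of dim probes, 24 rising and 28 falling genes met the rule, 23 and 27 of them from the list. At the limit the choice was narrow. Just inside it for rising genes were Lmnb1 (smaller step 0.503) and Sord (0.514), and just outside Nrxn2 (0.490), Sln (0.489) and Srpk3 (0.484). For falling genes Dlx1 (0.506), Zfp362 (0.508) and Dbr1 (0.509) were inside and Slc22a3 (0.494), a gene named Igsf7 l1 (0.484) and Tbc1d21 (0.482) outside. A further 12 rising and 9 falling genes passed both steps but had overlapping Wistar and GK-S-30 arrays. A second probe above background existed for 18 members. Of 25 such probes 23 had both steps in the member's direction, 14 with both past the limit. Several of these 14 were probes of the same gene, LOC363337. The exceptions among the 25 were probes of Cttnbp2 (0.24 and -0.34) and Tpm1 (-0.02 and 0.68).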

How the data were processed

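Total RNA of each rat was labelled with Cy3 and hybridised to 1-colour Agilent whole-genome rat arrays. The deposited scanner files hold linear intensity values from Agilent Feature Extraction 10.7, with background already subtracted, and flags for spots well above background. The authors also deposited a table of log2 signals per probe, which was used here for all levels and differences. Of 41012 probes, 17541 were named by accession, 3098 by symbol and 539 by synonym through RefSeq gene tables (GRCr8), 1325 kept the name in the file and 18509 had no name and were left out. A gene is represented by its brightest probe above background on all 5 arrays of at least 1 group, which left 13013 genes. Levels are compared between groups of rats for 1 probe and not between genes, since probes differ in brightness for the same RNA. Tests used limma 3.58.1 in R 4.3.3 (lmFit, eBayes) over all 15 arrays with the group as the only term and Benjamini-Hochberg adjustment over all genes at 0.05. Other steps used Python 3.11.15 with pandas 2.3.3, numpy 2.4.6 and matplotlib 3.10.9, and the model was tested on simulated data first. The bound "at least N-fold" is for genes not well above background on every array of a group. It sets the bright group's mean against, per array, the higher of the probe's own signal and the lowest signal among probes above background.

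Members, gene lists, classes and motifs were chosen with earlier results of these data known. The genes given with the value of every rat are, per direction, the 10 members with the largest difference between Wistar and GK-S-30 rats, and those of the gene and marker lists. Other members were named by class after their values were seen, and a few genes that these rules name are not reported here. Arrays had 66.7% to 74.7% of probes above background, and the arrays of Wistar rat 3 and GK-Sham-PF rat 5 were dimmer than the rest. The number of arrays limits the precision (median standard error of a difference 0.15). The alternatives were quantile, 75th percentile and normexp scaling of the scanner intensities, other filters and limits, the mean of a gene's probes, a block for slide or replicate number, a Tukey test, and leaving out single rats. Each rat is a separate animal per the labels. GK rats without an operation and other Roux limb lengths were not analysed here.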

Additional observations from a re-analysis of the deposited data

Results flagged for a closer look

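In 4 of 99 groups of 5 values tested for the genes shown rat by rat, 1 rat stood apart by Dixon's criterion, and chance gives about 1 in 20. Wistar rat 3 was at 3.99 in Fads1, with the other Wistar rats between 5.18 and 5.48, and at 12.62 in Fdps, with the others between 13.11 and 13.29. Its array was one of the dimmer pair. GK-S-30 rat 1 was at 4.38 in Fmo1, with the others between 5.38 and 5.62. GK-S-30 rat 3 was at 3.76 in Slc22a7, with the others between 1.32 and 1.5.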

How the results depend on the processing

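The members depended on how dim probes were treated. Normexp scaling left 24 rising and 28 falling genes in place of 77 and 70 and moved the median first and second steps of the rising members to 0.34 and 0.50 and the median second step of the falling ones to -0.38. Requiring signal above background on all 15 arrays left 46 and 45 genes, of which 91 were called between GK-S-30 and Wistar rats in place of 145. With that filter 3123 of all genes were called in this comparison. A step limit of 0.4 gave 124 and 114 genes, and a limit of 0.6 left 45 falling genes. With the slide as a block 18, 25 and 42 members were called in the first step, the second step and across both, in place of 95, 87 and 145, and 184, 285 and 239 of all 13013 genes, while the medians kept their direction (1.07, 1.16, -0.99 and -0.87). The causes were not tested. Leaving out 1 rat at a time gave 77 to 92 rising and 67 to 80 falling genes, and 49 and 38 members met the rule in all 15 such settings. The members called then ran from 71 to 97, 63 to 92 and 145 to 147. Over all genes the calls ran from 864 to 1215, 865 to 1488 and 2806 to 3693. Without the 2 dimmer arrays, an alternative chosen after seeing the data, 85 and 82 genes met the rule, 63 and 56 of them members. Quantile scaling gave 77 and 71 genes and the 75th percentile 70 and 90.

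Of 1428 recomputed steps of the genes shown rat by rat, 1394 moved by less than the spread between rats, 34 by more, and 0 changed direction. With the replicate number as a block, 73, 71 and 145 members were called, with 6.51%, 6.79% and 21.8% of all genes. Same-numbered rats did not deviate together (correlations from -0.27 to 0.18), so the values showed no pairing by number. Low correlations cannot show that the rats were unpaired. The methods' one-way comparison with Tukey's correction, without adjustment over genes, called 101, 100 and 145 members and 14.6%, 16.3% and 29.0% of all genes. Dim signal limits the size of a step where a group is below background.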
